A study of Rattus norvegicus with 9 samples.

Results

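The 30 genes described here are expressed by oligodendrocytes, the glial cells that wrap axons of the central nervous system in myelin. They were chosen by symbol from a table of 37991 rat genes, and all 30 were found in it. By role they comprise 12 structural genes of the myelin sheath, 2 genes of axon-glia adhesion, 4 genes of myelin lipid synthesis, 6 transcription factors and 6 other genes enriched in oligodendrocytes. RNA sequencing was carried out on the medial prefrontal cortex (mPFC) of Wistar Kyoto rats, an inbred strain studied for its depression-like traits. The series asks which transcripts differ while an antidepressant effect outlasts the drug. The K4 group had 3 libraries from rats given K4, a compound known here only by that code, for 7 days by the intravenous route through a cannula. The Ketamine group had 3 libraries from rats given ketamine, an anaesthetic that blocks NMDA-type glutamate receptors, under the skin for 7 days. Both groups then went 7 days without drug. The Control group had 3 libraries from rats that received no treatment. All 9 libraries were taken on day 15. The labels give no dose, no vehicle or cannula control, and no age or sex of the rats. K4 and ketamine differ in compound and in route, and these cannot be told apart. The labels do not say that each library came from a separate rat, so p-values measure only the spread between these libraries.

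Oligodendrocytes arise from dividing precursors that carry the receptor Pdgfra, pass through a newly formed stage and then make myelin, a stack of membrane rich in cholesterol and galactolipids that is held together by a small set of very abundant proteins. The transcription factors Olig1, Olig2 and Sox10 act along the whole lineage, and Olig2 and Sox10 lie upstream of Myrf, which drives the genes of the mature myelinating cell in mice. In frontal cortex myelin is sparse and is laid down late, and in rodents it is known to change with experience and with social isolation.

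Library depth was 28495399 to 32735785 counts in K4, 27122207 to 33837450 in Ketamine and 40863756 to 42731004 in Control. Mitochondrially encoded genes took 10.4% to 11.4% of the counts in K4, 10.6% to 11.8% in Ketamine and 11.6% to 19.0% in Control, the highest being replicate 2 of Control. A gene counts as called below at p below 0.05 in edgeR's quasi-likelihood test after Benjamini-Hochberg adjustment over the 18047 genes that passed a filter on low counts, as all 30 members did. By this rule 6.07% of all genes were called in K4 against Control, 16.7% in Ketamine against Control and 0% in K4 against Ketamine. Both comparisons with Control share the same 3 Control libraries, so their values stand side by side and are not independent. In bulk tissue, fewer oligodendrocytes and less RNA per oligodendrocyte cannot be told apart.

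The upstream sequence of 5 structural genes is shown first, because these 5 carry letters recognised by MYRF (the protein of Myrf) within 250 bases of their start. RefSeq's promoter table for the GRCr8 assembly had entries for 21 of the 30 members, 23 entries in all. St18, Bcas1, Mog, Enpp2, Ermn, Olig1, Myrf, Sox10 and Cryab had none. Both strands were searched for the MYRF letters CTGGCAC and their variant form CTGGTAC, and for the letters ACAAAG of SOX proteins such as SOX10 with their variant form ACAATG. Capitals mark each match, and a match on the opposite strand appears as its reverse complement. No printed match overlaps another. The 250 bases before the start lie at chr1:95291045-95291294 on the minus strand for Mag, chr1:249858191-249858440 on the minus strand for Opalin, chr2:114149540-114149789 on the minus strand for Cldn11, chr3:135341424-135341673 on the minus strand for Mal and chr10:86011254-86011503 on the plus strand for Cnp.
Mag: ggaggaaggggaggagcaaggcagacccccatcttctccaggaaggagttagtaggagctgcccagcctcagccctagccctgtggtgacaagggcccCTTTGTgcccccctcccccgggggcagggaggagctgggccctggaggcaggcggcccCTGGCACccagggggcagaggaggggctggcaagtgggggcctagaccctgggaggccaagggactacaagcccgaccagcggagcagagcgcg
Opalin: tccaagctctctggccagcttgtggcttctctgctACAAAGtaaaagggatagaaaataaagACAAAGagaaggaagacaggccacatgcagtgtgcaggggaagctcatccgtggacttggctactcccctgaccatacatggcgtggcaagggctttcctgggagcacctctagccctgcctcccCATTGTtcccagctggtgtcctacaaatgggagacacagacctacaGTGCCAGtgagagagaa
Cldn11: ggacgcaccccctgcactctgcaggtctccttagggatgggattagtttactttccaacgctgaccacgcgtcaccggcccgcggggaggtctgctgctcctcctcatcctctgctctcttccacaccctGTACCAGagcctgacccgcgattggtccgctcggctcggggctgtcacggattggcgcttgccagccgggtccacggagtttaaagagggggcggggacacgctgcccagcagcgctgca
Mal: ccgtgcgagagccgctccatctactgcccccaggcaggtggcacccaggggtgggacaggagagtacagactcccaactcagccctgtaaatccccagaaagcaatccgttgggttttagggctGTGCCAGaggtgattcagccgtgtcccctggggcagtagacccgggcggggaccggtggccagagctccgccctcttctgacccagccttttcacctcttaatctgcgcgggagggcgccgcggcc
Cnp: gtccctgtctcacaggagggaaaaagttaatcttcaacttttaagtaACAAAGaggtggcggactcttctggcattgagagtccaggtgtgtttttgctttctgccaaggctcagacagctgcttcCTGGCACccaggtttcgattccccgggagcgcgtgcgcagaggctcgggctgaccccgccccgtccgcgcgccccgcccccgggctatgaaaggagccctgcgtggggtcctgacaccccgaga
The MYRF letters began 94 bases upstream of the start in Mag, 17 in Opalin, 120 in Cldn11, 126 in Mal and 124 in Cnp. Among the other members they were found 34 bases upstream in Olig2 and 180 in Nfasc. In all, 7 of the 23 member promoters (30.4%) held them, beside 5.48% of 33469 promoters of the same length. GC content was 52.8% to 70.0% in these 7, beside a median of 51.2% in all promoters, and was not matched. Mbp and Nfasc had 2 entries each among the 23. The SOX letters stood in 6 of the 23 (26.1%), beside 25.3% of all promoters. Of the 8 members called below in at least 1 comparison, 5 had a promoter entry, and among these only Cldn11 held the MYRF letters. A match is a string of letters and was not tested as a binding site.

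Transcript levels can be compared between genes on the TPM scale, which is per length. Mbp, the basic protein that holds the cytoplasmic faces of the myelin membrane together, was the most abundant member, at 1126 ± 158 TPM in K4, 778 ± 58.1 in Ketamine and 794 ± 186 in Control (SD, n = 3 each). Mobp, a small basic protein of compact myelin, came next at 238 ± 44.3, 164 ± 21.95 and 183 ± 40.0 TPM in K4, Ketamine and Control. The order between neighbours below Mobp was not firm. Cnp, an enzyme of the non-compact myelin channels, averaged 135 TPM over the 9 libraries and Qdpr, which recycles the cofactor tetrahydrobiopterin, averaged 132 TPM. The lowest members were Gjb1, a gap junction connexin, Gal3st1, which adds sulfate to galactosylceramide, Nkx6-2, a homeodomain factor, and St18, a zinc-finger factor. Their means over 9 libraries were 3.80, 3.25, 3.18 and 0.65 TPM, each within the spread of the next except St18, whose highest library was at 0.84 TPM and so below every library of the others.

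Summed over the 30 members, the level was 2416, 2848 and 2331 TPM in the K4 libraries, 1986, 1718 and 1863 TPM in the Ketamine libraries and 1623, 2195 and 1937 TPM in the Control libraries. Every K4 library lay above every Ketamine and Control library, while Ketamine and Control overlapped. On the TPM scale the median of all genes itself was 0.15 higher in K4 and 0.11 higher in Ketamine than in Control (log2), so all fold changes below come from the counts, scaled by TMM so that the median gene did not move. The choroid plexus marker Ttr was at 0 in 7 libraries and at 0.32 and 0.31 TPM in the others. The 6 choroid plexus markers, which matter for Enpp2 and Tf because that tissue makes both, summed to 2.36 to 8.59 TPM in K4, 4.73 to 6.44 in Ketamine and 1.33 to 5.26 in Control, with Folr1 and Clic6 at 0 throughout.

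**Figure D1:**
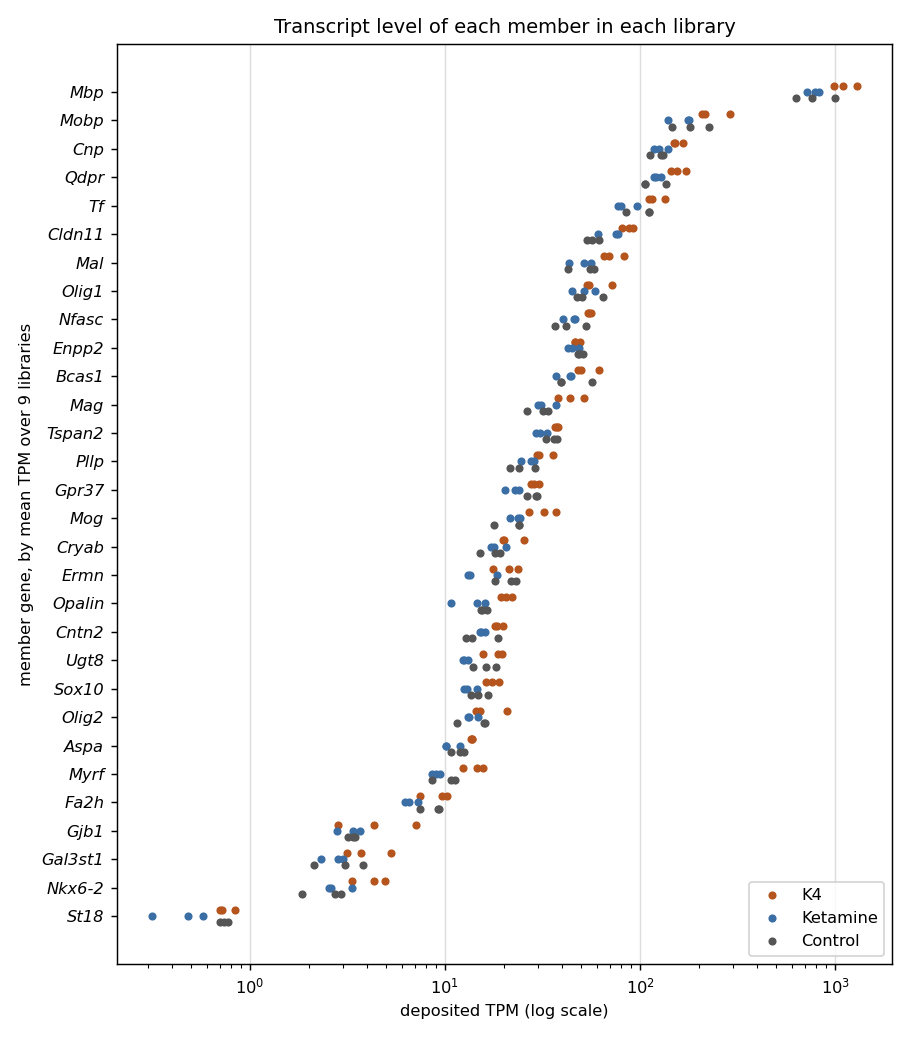
Deposited TPM of each of the 30 members (rows, by mean over 9 libraries) on a log axis, 1 point per library, coloured by group. Mbp stands apart at the top, at 899 TPM on average, and St18 at the bottom, below 1 TPM in every library.

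Libraries of the same group differed in these genes by more than in most genes. The median coefficient of variation between replicates over the 30 members was 13.6% in K4, 10.4% in Ketamine and 16.8% in Control, beside 6.08%, 6.39% and 8.28% in the 14009 genes at or above the lowest member's level. Relative to each gene's mean over all libraries, the median structural gene stood at 0.06, 0.47 and 0.12 (log2) in K4 replicates 1 to 3. It stood at -0.05, -0.40 and -0.16 in Ketamine and at -0.30, 0.27 and -0.13 in Control. The structural genes moved together within each group: replicate 2 was the highest K4 library in 10 of 12, the lowest Ketamine library in 11 of 12 and the highest Control library in 12 of 12. Over all 30 members the same libraries took those places in 25, 23 and 25.

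Other lists moved in the same libraries. Control replicate 2 also had the highest median deviation in the 6 precursor markers (0.74) and the 7 astrocyte markers (0.68), the lowest in the 7 neuronal markers (-0.27), and the highest mitochondrial share. In the K4 libraries those markers moved little, with precursor deviations of -0.08, -0.10 and -0.22, so replicate 2 of K4 was high in myelin genes and not in precursor genes. In the Ketamine libraries the precursor deviations were -0.25, -0.32 and -0.34. The part of these marker lists in the myelin gene values was not tested.

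**Figure D2:**
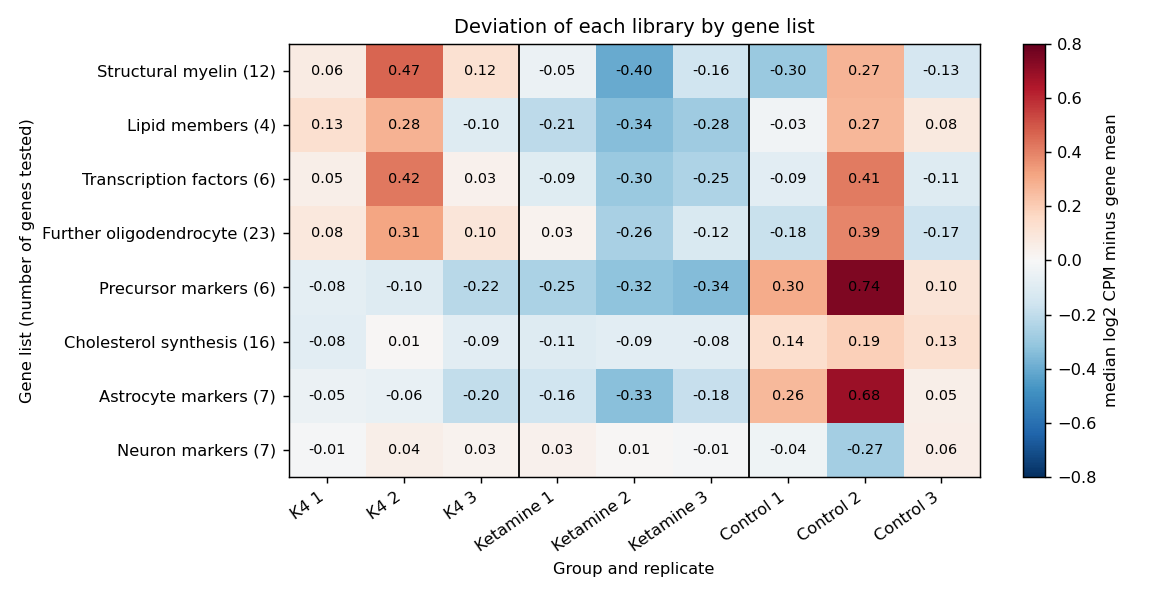
Median deviation of each library from the gene mean (log2 CPM, colour) for 3 role groups of members and 5 further gene lists (rows) in the 9 libraries (columns). The structural genes are highest in K4 replicate 2 (0.47) and lowest in Ketamine replicate 2 (-0.40), and Control replicate 2 is high in precursor (0.74) and astrocyte (0.68) markers too.

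In Ketamine against Control, 7 of the 30 members (23.3%) fell and none rose. Of all genes 9.75% fell and 6.95% rose, so that 16.7% were called in either direction. At an unadjusted edgeR p below 0.05 there were 9 members (30%), beside 31.3% of all genes. The 7 called members were spread over 4 of the 5 roles: Ermn and Tspan2 among the structural genes, Ugt8 and Fa2h in lipid synthesis, St18 among the transcription factors, and Gpr37 and Enpp2 among the other enriched genes. Mbp, Mobp, Cnp, Qdpr and Tf, the 5 most abundant members, were not among them. The groups did not overlap in these 7 members (23.3%), beside 18.1% of all genes with every Ketamine library below every Control library, and in none of the 30 was every Ketamine library above (beside 16.9%). Log2 fold changes were negative in 27 members, with a median of -0.23, beside -0.00 for all genes.

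The lipid genes had the lowest median, -0.35. Ugt8, which makes galactosylceramide, the main glycolipid of myelin, was at 22.99, 21.0 and 22.5 CPM (counts scaled to library size) in Ketamine and at 26.4, 35.4 and 31.3 CPM in Control. All Ketamine libraries were lower, by -0.48 on the log2 scale (SE 0.11, edgeR adjusted p = 0.0128). Fa2h, which hydroxylates the fatty acids of myelin galactolipids, was at 8.99, 7.48 and 8.19 CPM in Ketamine and at 9.79, 14.3 and 11.1 CPM in Control, a log2 change of -0.51 (SE 0.16, edgeR adjusted p = 0.0420). The groups came within 1 CPM of each other through Control replicate 1. Aspa, which releases acetate for lipid synthesis from N-acetylaspartate, had -0.23 (edgeR adjusted p = 0.193) and Gal3st1 had 0.01 (edgeR adjusted p = 0.983).

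Among the structural genes Tspan2, a tetraspanin of the oligodendrocyte membrane, was at 58.3, 54.1 and 64.0 CPM in Ketamine and at 75.6, 77.7 and 67.7 CPM in Control, a log2 change of -0.32 (SE 0.07, edgeR adjusted p = 0.0111). Ermn, a cytoskeletal protein of the mature sheath, was at 16.4, 11.3 and 12.04 CPM in Ketamine and at 17.1, 25.2 and 18.8 CPM in Control, a log2 change of -0.61 (SE 0.18, edgeR adjusted p = 0.0398). Ketamine replicate 1 reached almost to the lowest Control library in Ermn. The other 10 structural genes did not pass the test. Mbp had -0.25, Mobp -0.32, Cnp -0.11 and Mal, a raft protein of myelin, -0.19, and Cldn11 was the only structural gene with a positive value, 0.17 (edgeR adjusted p = 0.269). The 2 adhesion genes did not pass either: Cntn2, a contactin of the juxtaparanode that neurons also express, had the smaller p, with 66.7, 67.2 and 59.9 CPM in Ketamine and 61.2, 74.7 and 82.5 CPM in Control, overlapping groups and a log2 change of -0.17 (edgeR adjusted p = 0.277).

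St18 was at 2.23, 1.42 and 2.72 CPM in Ketamine and at 3.504, 4.03 and 3.49 CPM in Control, a log2 change of -0.78 (SE 0.21, edgeR adjusted p = 0.0249). It is a low gene, and Ketamine replicate 2 was the lowest library. Myrf, with -0.30 (edgeR adjusted p = 0.180), Sox10, with -0.32 (edgeR adjusted p = 0.140), and Olig1, Olig2 and Nkx6-2 did not pass. Gpr37, an orphan receptor that slows oligodendrocyte differentiation in mice, was at 36.4, 33.9 and 31.4 CPM in Ketamine and at 42.8, 55.7 and 44.4 CPM in Control, a log2 change of -0.49 (SE 0.10, edgeR adjusted p = 0.00696). The 3 Ketamine libraries lay close together, all below the lowest Control library. Enpp2, or autotaxin, which makes the signalling lipid lysophosphatidic acid, was at 66.7, 57.2 and 62.0 CPM in Ketamine and at 70.6, 83.0 and 68.9 CPM in Control, a log2 change of -0.26 (SE 0.08, edgeR adjusted p = 0.0387). Tf, the iron carrier transferrin, was lower by a larger amount, -0.41, but its libraries overlapped and it did not pass (edgeR adjusted p = 0.102). It was called by DESeq2 (adjusted p = 0.0242) and in the edgeR fit without Control replicate 1 (adjusted p = 0.0330).

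Single libraries decided much of this count. Gpr37 was called in all 9 fits that each leave out 1 library, and Tspan2 and Ugt8 were called in 8, losing the call without Ketamine replicate 2. St18 was called in 5 of the 9 and lost the call without Ketamine replicate 1 or 2 or Control replicate 1 or 2. Ermn was called in 4, which leave out K4 replicate 2 or 3, Ketamine replicate 1 or Control replicate 1. Fa2h and Enpp2 were called in 3 each, Fa2h without K4 replicate 2 or 3 or Control replicate 1, and Enpp2 without K4 replicate 2, Ketamine replicate 1 or Control replicate 3. Without Ketamine replicate 2 only 1 member was called (Gpr37), and without Control replicate 2 there were 3 (Tspan2, Ugt8 and Gpr37) and the members' median was -0.037. Of all genes, 1177 of 18406 were called without Ketamine replicate 2 and 3058 of 18391 without Control replicate 2, beside 3013 of 18047 with all libraries. The count of members was 4 without K4 replicate 1 or without Ketamine replicate 3, beside 2556 of 18400 and 1556 of 18352 genes. With an offset for library differences in gene length the count was 3 (Ermn, Ugt8 and Gpr37), beside 1400 of 18047 genes. On TPM with limma it was 1 (Gpr37), beside 1593 of 16698 genes.

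**Figure D3:**
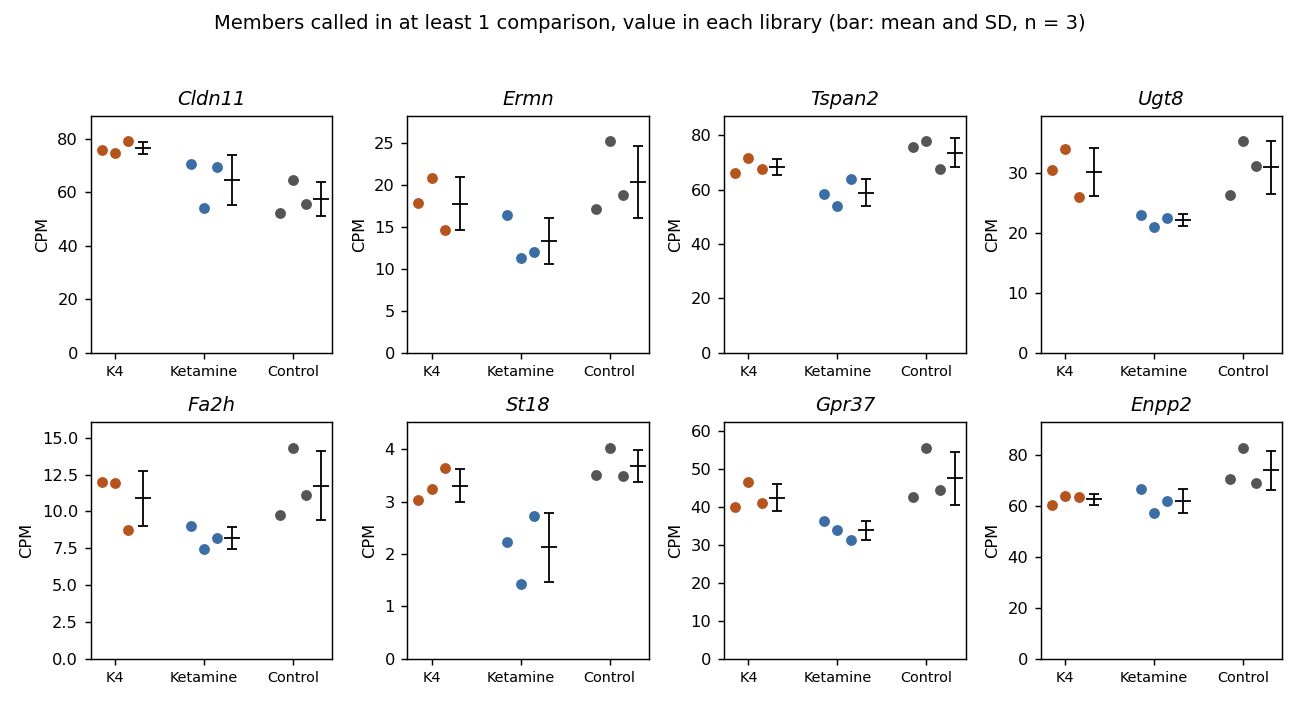
CPM of the 8 members called in at least 1 comparison, 1 point per library, with the mean and SD of each group (n = 3) as a bar, in the order K4, Ketamine and Control. In 7 panels every Ketamine point lies below every Control point, and in the Cldn11 panel every K4 point lies above every Control point.

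In K4 against Control, 1 of the 30 members rose and none fell (3.33%), beside 6.07% of all genes called in either direction and 2.27% called higher. That gene was Cldn11, which forms the tight junctions between turns of the myelin sheath. It was at 75.9, 74.7 and 79.0 CPM in K4 and at 52.2, 64.6 and 55.5 CPM in Control, a log2 change of 0.41 (SE 0.10, edgeR adjusted p = 0.0340). The 3 K4 libraries lay close together, above all Control libraries. The call was made in 4 of the 9 fits that leave out a library (adjusted p up to 0.120) and was lost without any 1 of the 3 K4 libraries and without Control replicate 1 or 3. It was also lost with the gene length offset (edgeR adjusted p = 0.0693), under which Nfasc was the 1 member called, with a log2 change of 0.36 (edgeR adjusted p = 0.0252).

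The remaining 29 members did not pass. Log2 fold changes were positive in 22 members, and the members' median was 0.14. By role the medians were 0.23 for structural genes, 0.17 for adhesion, 0.02 for lipid synthesis, 0.03 for transcription factors and 0.05 for the other enriched genes. At an unadjusted edgeR p below 0.05 there were 6 members (20%), beside 23.5% of all genes. Groups did not overlap in 3 members that were higher in K4 (10%, beside 13.3% of all genes), which were Cldn11, Nkx6-2 and Qdpr, and in 1 that was lower (Enpp2, 3.33%, beside 14.2%).

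In each role the member with the smallest p can be set beside Cldn11. Nfasc, neurofascin, which anchors the paranodal loops in glia and the node in neurons, was at 258, 277 and 253 CPM in K4 and at 218, 226 and 254 CPM in Control. These groups overlapped by 1 Control library, and the log2 change was 0.18 (SE 0.07, edgeR adjusted p = 0.159). Nkx6-2 was at 2.02, 3.12 and 2.57 CPM in K4 and at 1.84, 1.46 and 1.81 CPM in Control, with a log2 change of 0.59 (SE 0.22, edgeR adjusted p = 0.130), the highest value of any member in this comparison. Qdpr was at 88.3, 111 and 94.1 CPM in K4 and at 72.9, 84.2 and 85.9 CPM in Control, with a log2 change of 0.27 (SE 0.09, edgeR adjusted p = 0.0809). Fa2h had the smallest p of the lipid genes, with 11.99, 11.95 and 8.71 CPM in K4 and 9.79, 14.3 and 11.1 CPM in Control, so that the groups overlapped and the log2 change was -0.11 (SE 0.16, edgeR adjusted p = 0.732). Enpp2 was lower in all 3 K4 libraries, at 60.3, 64.1 and 63.6 CPM against 70.6, 83.0 and 68.9 CPM in Control, with a log2 change of -0.24 (SE 0.08, edgeR adjusted p = 0.0842).

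Mbp, of compact myelin, spread widely in both groups. It was at 1041, 1410 and 1006 CPM in K4 and at 751, 1339 and 841 CPM in Control, and its log2 change of 0.24 had a 95% interval of -0.29 to 0.76. Mog, a surface protein of the outermost turn of myelin, and Mag, the sialic acid-binding glycoprotein of the innermost turn, had 0.28 and 0.35 (edgeR adjusted p = 0.359 and 0.193). Without Control replicate 2 there were 4 calls, Cnp, Cldn11, Pllp (a tetraspan protein of myelin rafts) and Myrf, and without K4 replicate 2 there were none and the members' median was 0.06. Without Control replicate 3 there were 2, Nfasc and Qdpr. Without Control replicate 1 or without any 1 K4 library there were none. Of all genes, 1548 of 18391 were called without Control replicate 2 and 1528 of 18373 without Control replicate 3. The number was 174 without Control replicate 1, and 239, 346 and 228 without K4 replicates 1, 2 and 3, beside 1095 with all libraries.

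**Figure D4:**
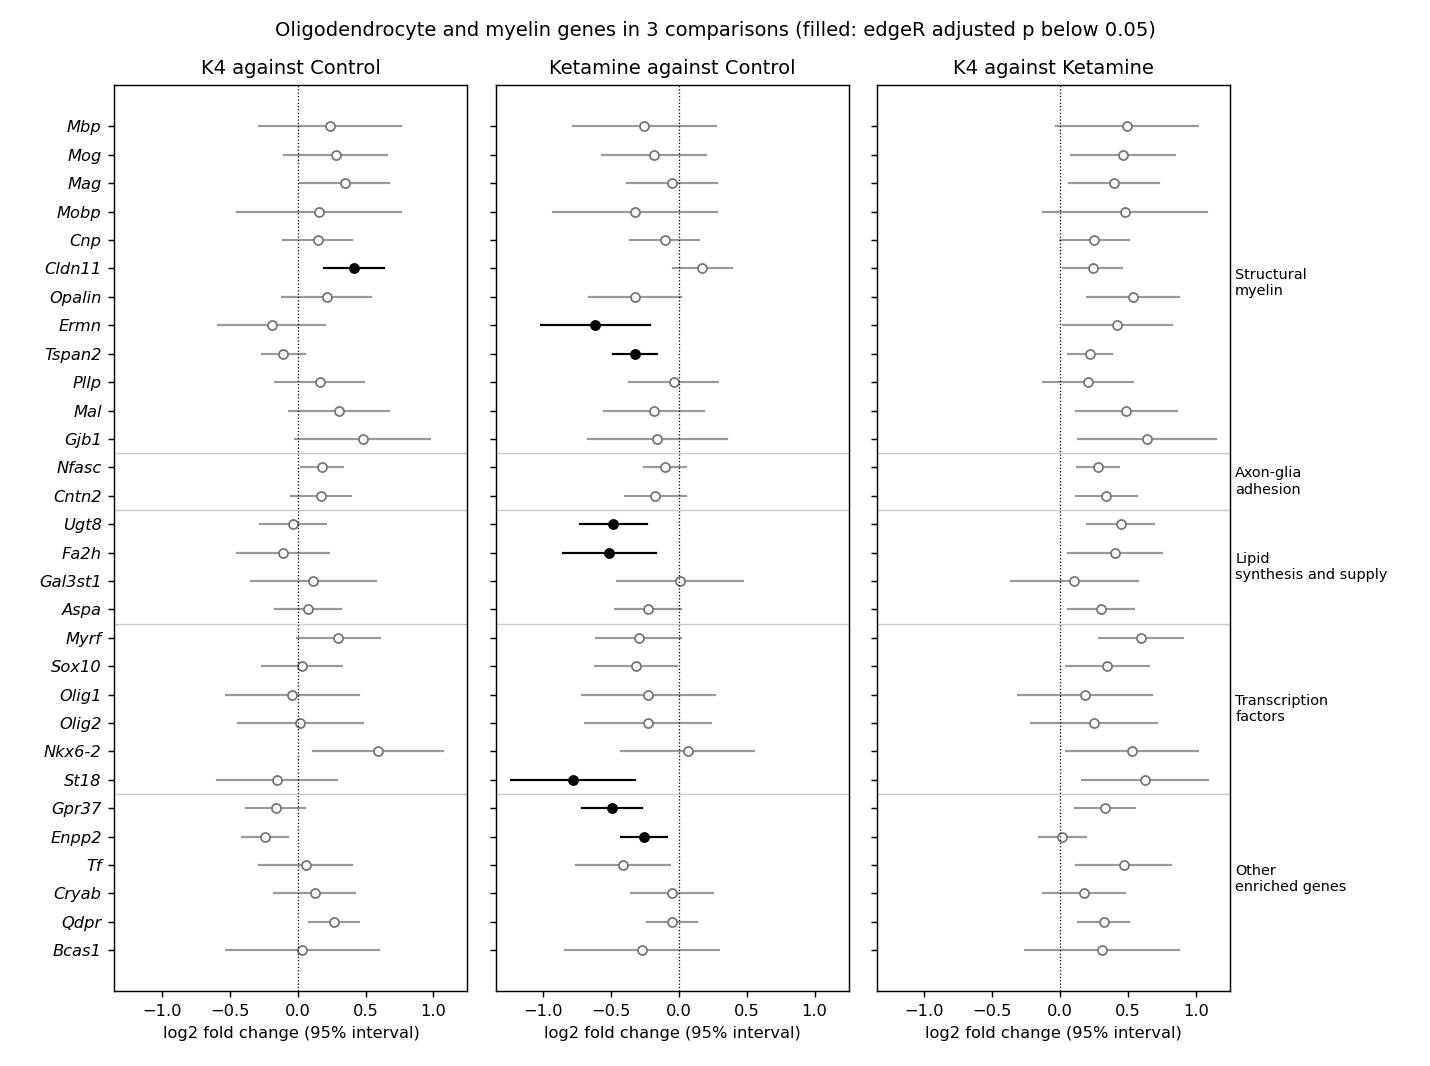
Log2 fold change of each of the 30 members (rows, grouped by role) with its 95% interval in K4 against Control, Ketamine against Control and K4 against Ketamine (panels, left to right), with calls at an edgeR adjusted p below 0.05 filled. Against Control 1 member is called higher in K4 and 7 are called lower in Ketamine, and all 30 lie above 0 in K4 against Ketamine with no call.

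In K4 against Ketamine, all 30 log2 fold changes were positive, with a median of 0.35, beside 0.00 for all genes, and no member passed the adjusted test. Of all 18047 genes edgeR called 0 (0%), while DESeq2 called 1 member, Myrf, beside 66 of 14739 genes. In edgeR 20 members had an unadjusted edgeR p below 0.05 (66.7%, beside 9.13% of all genes). Every K4 library was above every Ketamine library in 21 members (70%, beside 9.49% of all genes), and every K4 library was below in none (beside 8.29%). The members share libraries and move together within replicates, so these counts do not stand for 30 separate observations.

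The highest role medians were those of the structural genes, 0.44, and the transcription factors, 0.44, followed by lipid synthesis, 0.35, and by adhesion and the other enriched genes, each at 0.31. In 10 of the 12 structural genes the groups did not overlap, the exceptions being Mag and Ermn. Mbp was at 1041, 1410 and 1006 CPM in K4 and at 902, 696 and 859 CPM in Ketamine, a log2 difference of 0.49 with a 95% interval of -0.03 to 1.02. Opalin, a membrane glycoprotein of mature oligodendrocytes, was at 24.6, 29.6 and 25.9 CPM in K4 and at 21.5, 13.9 and 19.7 CPM in Ketamine, a log2 difference of 0.54 (SE 0.15, edgeR adjusted p = 0.337). No Ketamine library of Opalin reached the lowest K4 library.

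Myrf had the smallest p of the 30 members. It was at 38.8, 43.6 and 32.6 CPM in K4 and at 26.7, 24.8 and 24.6 CPM in Ketamine, a log2 difference of 0.60 with a 95% interval of 0.28 to 0.91 (edgeR adjusted p = 0.316). In Control it was at 25.6, 38.6 and 29.3 CPM, which overlaps both drug groups. Ugt8 was at 30.5, 34.0 and 26.1 CPM in K4, against 22.99, 21.0 and 22.5 CPM in Ketamine, a log2 difference of 0.45 (SE 0.11, edgeR adjusted p = 0.326). All 3 K4 libraries lay within the range of Control or just below it in Ugt8, and all 3 Ketamine libraries lay below it. The opposite arrangement was seen in Cldn11, where Ketamine, at 70.6, 54.0 and 69.5 CPM, overlapped Control and lay below K4. Enpp2 was the member least different between the drugs, with a log2 difference of 0.02 and a 95% interval of -0.15 to 0.19.

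Positive values numbered 27 to 30 in the fits that leave out 1 library. The 27 were found without K4 replicate 2, when Gal3st1, at -0.17, Olig1 and Enpp2 were below 0. The number at an unadjusted p below 0.05 was 9 without Ketamine replicate 2, 12 without K4 replicate 2 and 15 to 24 in the others. Myrf alone of the members passed the adjusted threshold in the fit without Control replicate 2, beside 12 of 18391 genes. The same held in a fit of the 2 drug groups alone, beside 27 of 17730 genes.

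The libraries were also scaled by the 12 structural genes themselves, an alternative chosen after the data were seen. No member was then called in K4 against Control (beside 1.85% of all genes), in Ketamine against Control (1.01%) or in K4 against Ketamine (0.0332%). At an unadjusted edgeR p below 0.05 there were 1, 2 and 0 members in these comparisons, with no share of all genes taken at that threshold. By construction this scaling removes what the structural genes share, so the absence of calls cannot show whether these genes differ between groups. Standard errors also grew: Tspan2 in Ketamine against Control had 0.19, beside 0.07 with TMM.

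A further list of 24 genes expressed by oligodendrocytes, 23 of them tested, had no call by edgeR or DESeq2 in any of the 3 comparisons. On log2(TPM + 1), limma called 4 of them higher in K4 against Control, beside 671 of 16698 genes called higher. At an unadjusted edgeR p below 0.05 there were 5 genes in K4 against Control (21.7%, beside 23.5% of all genes). There were 2 in Ketamine against Control (8.7%, beside 31.3%) and 9 in K4 against Ketamine (39.1%, beside 9.13%). The list's median log2 fold change in edgeR was 0.13 in K4 against Control, -0.21 in Ketamine against Control and 0.25 in K4 against Ketamine. The smallest p belonged to Gjc3, a gap junction connexin, at -0.68 in Ketamine against Control (edgeR adjusted p = 0.106), and to Adamts4, a protease of mature oligodendrocytes, at 0.85 in K4 against Ketamine (edgeR adjusted p = 0.316). Without Control replicate 2, 4 genes of this list were called higher in K4 and 1 higher in Ketamine, beside 541 and 1225 of 18391 genes. Without Ketamine replicate 1, 3 were called lower in Ketamine, and without Control replicate 1 it was 1, beside 1571 of 18415 and 1114 of 18396 genes.

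Some genes of the lipid pathways that supply myelin, and that neurons and astrocytes also use, fell in both drug groups. Of 16 cholesterol synthesis genes, 5 were called lower in K4 against Control (31.2%, beside 3.8% of all genes) and 7 in Ketamine against Control (43.8%, beside 9.75%), with medians of -0.20 and -0.25 and no edgeR call between the drugs (2 of 16 at an unadjusted p below 0.05). Hmgcs1, which makes the precursor of mevalonate, averaged 328 ± 14.0 CPM in K4, 311 ± 15.8 in Ketamine and 435 ± 17.8 in Control (SD, n = 3 each), with log2 changes of -0.41 and -0.49 against Control (edgeR adjusted p = 0.00552 and 0.000603). Cyp51 and Msmo1, which demethylate sterols, fell by similar amounts, with log2 changes of -0.47 and -0.44 in K4 and of -0.54 and -0.47 in Ketamine (edgeR adjusted p = 0.0145, 0.0110, 0.00267 and 0.00242). Fdft1, or squalene synthase, had -0.30 in K4 (edgeR adjusted p = 0.0371), and Sc5d, a sterol desaturase, had -0.32 in Ketamine (edgeR adjusted p = 0.00887). The K4 count was 1 without Control replicate 1 or without K4 replicate 1 or 3, 3 without K4 replicate 2 or Ketamine replicate 2, and 0 on the TPM scale. Fewer of all genes were called lower in K4 there too, beside 686 of 18047 with all libraries. They were 124 of 18396 without Control replicate 1, and 150 of 18400, 222 of 18414 and 146 of 18375 without K4 replicates 1, 2 and 3. They were 456 of 18406 without Ketamine replicate 2 and 55 of 16698 on TPM. The Ketamine count was 5 to 8 without any 1 library and 3 on the TPM scale. Of all genes 752 to 1833 were called lower in Ketamine in the former fits and 371 on the TPM scale.

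Of 16 sphingolipid and fatty acid genes, 2 were called lower in K4 against Control (12.5%, beside 3.8% of all genes) and 6 in Ketamine against Control (37.5%, beside 9.75%). Acaca, the first enzyme of fatty acid synthesis, averaged 83.4 ± 4.66 CPM in K4, 71.1 ± 4.08 in Ketamine and 104 ± 5.65 in Control, with log2 changes of -0.32 and -0.55 against Control (edgeR adjusted p = 0.0179 and 0.000458). Scd, a fatty acid desaturase, averaged 29.7 ± 1.70 CPM in K4, 25.5 ± 3.40 in Ketamine and 47.6 ± 10.3 in Control, with log2 changes of -0.68 and -0.90 (edgeR adjusted p = 0.0209 and 0.00237). In Ketamine the fatty acid synthase Fasn had -0.46 (edgeR adjusted p = 0.00147) and the sphingomyelin synthase Sgms1 had -0.46 (edgeR adjusted p = 0.00133). The K4 count was 1 without K4 replicate 2 and 0 without K4 replicate 1 or 3 or Control replicate 1. The numbers of all genes called lower in these fits are those given for the cholesterol list. The Ketamine count was 5 or 6 without any 1 library, and on the TPM scale the counts were 1 in K4 (0 without the filter on low values) and 2 in Ketamine.

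Some markers of the earlier stages of the lineage fell in both drug groups. Some astrocyte markers fell in the same comparisons, as given below, and the part of other cell types in these values was not tested. Of 6 precursor markers, 3 were called lower in K4 against Control (50%, beside 3.8% of all genes), which were Sox6, Vcan and Ptprz1. In Ketamine against Control 5 were called lower (83.3%, beside 9.75%), these 3 and Pdgfra and Cspg4. In K4 Pdgfra, Cspg4 and C1ql1 were not called, with -0.44, -0.45 and -0.06. Vcan and Ptprz1 had log2 changes of -0.63 and -0.69 in K4 (edgeR adjusted p = 0.0154 and 0.0236). In Ketamine Vcan, Ptprz1 and Pdgfra had -0.84, -0.84 and -0.65 (edgeR adjusted p = 0.00142, 0.00382 and 0.0151). Sox6, a transcription factor of precursors, averaged 19.7 ± 1.17 CPM in K4, 17.05 ± 0.898 in Ketamine and 31.3 ± 5.21 in Control, with log2 changes of -0.67 and -0.88 (edgeR adjusted p = 0.00690 and 0.000543). Of 6 markers of newly formed oligodendrocytes, 1 was called lower in K4 (16.7%, beside 3.8% of all genes) and 2 in Ketamine (33.3%, beside 9.75%). The list medians were -0.24 and -0.30. Itpr2, a calcium release channel, had -0.56 in K4 (edgeR adjusted p = 0.0293) and -0.75 in Ketamine (edgeR adjusted p = 0.00298). Gpr17, a receptor of the newly formed stage, had -0.79 in Ketamine (edgeR adjusted p = 0.00429). Bmp4 and Neu4 were positive in K4, at 0.23 and 0.13, and Bmp4 was at 0.00 in Ketamine, without a call. The precursor count in K4 was 1 without any 1 K4 library and 2 without Control replicate 1. The numbers of all genes called lower in these fits are those given for the cholesterol list. With the gene length offset the precursor count in K4 was 0, beside 214 of 18047 genes called lower. In Ketamine it was 3 without Ketamine replicate 2 or 3 and 3 with that offset. Of all genes 752 of 18406, 954 of 18352 and 796 of 18047 were called lower in these fits. The Itpr2 call in K4 was lost without Control replicate 1, without any 1 K4 library and with the offset.

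**Figure D5:**
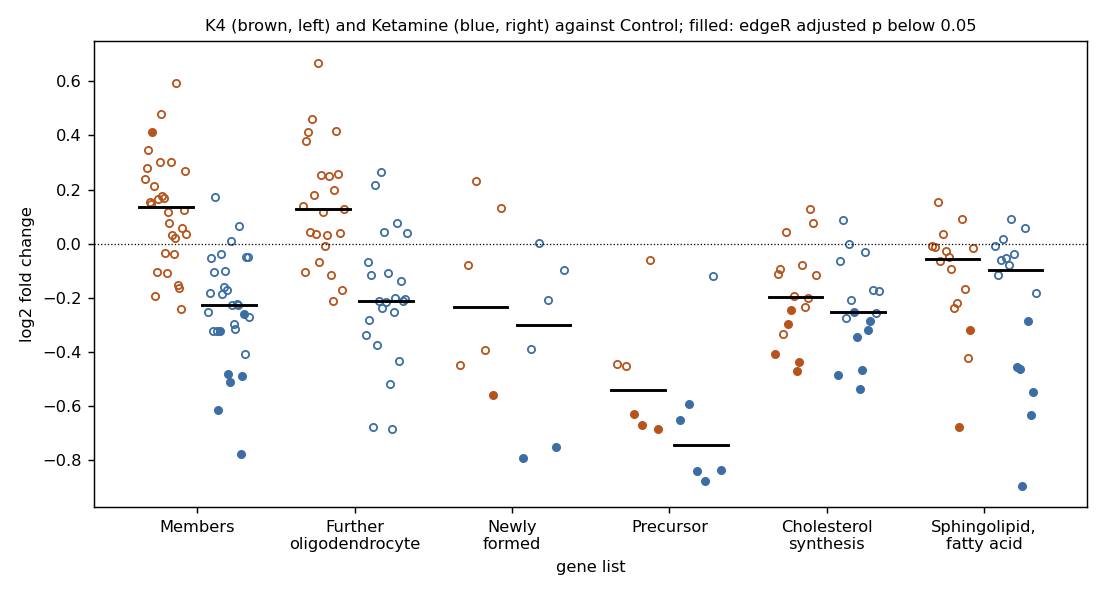
Log2 fold change against Control of each gene (points) of the 30 members and the further lists, K4 at the left and Ketamine at the right of each pair, with bars at the medians and calls at an edgeR adjusted p below 0.05 filled. Calls in the newly formed, precursor, cholesterol and sphingolipid lists are all below 0 in both groups, and the members have 1 call above 0 in K4 and 7 below 0 in Ketamine.

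Markers of other cell types moved with the groups too. Against Control, 3.8% of all genes were called lower in K4 and 9.75% in Ketamine. Of 7 astrocyte markers, 2 were called lower in K4 (28.6%) and 6 in Ketamine (85.7%) against Control. Their summed level was 1647 to 1793 TPM in K4, 1372 to 1480 in Ketamine and 2016 to 2500 in Control. Of 6 endothelial and mural markers, 3 were called lower in each drug group, with sums of 196 to 232, 142 to 174 and 231 to 273 TPM in K4, Ketamine and Control. Of 6 microglia markers, 1 was called lower in K4 and 3 in Ketamine, with sums of 295 to 303, 265 to 287 and 275 to 305 TPM. Of 7 neuronal markers, none was called by edgeR in K4 (4 at an unadjusted p below 0.05, and 1 called by DESeq2), and in Ketamine Stmn2 rose and Gad2 fell, with sums of 4050 to 4298, 4077 to 4292 and 2641 to 4196 TPM. Of 5 striatal markers, 1, Rgs9, was called higher in K4 and none in Ketamine. Neither edgeR nor DESeq2 called a gene of the choroid plexus, Schwann cell or meningeal lists in either comparison, and 1, in the meningeal list in K4, had an unadjusted edgeR p below 0.05. The 4 Schwann cell markers summed to 3.34 to 17.5 TPM in K4, 4.55 to 7.86 in Ketamine and 6.25 to 8.86 in Control, and the 4 meningeal markers to 17.1 to 41.7, 28.9 to 42.0 and 18.6 to 29.9 TPM. When 1 library was left out, the number called lower was 0 to 5 astrocyte markers in K4 and 2 to 6 in Ketamine, 0 to 3 endothelial and mural markers in K4 and 3 to 5 in Ketamine, and 0 to 2 microglia markers in K4 and 2 or 3 in Ketamine. Of all genes 124 to 1007 were called lower in K4 and 752 to 1833 in Ketamine in these fits. The Rgs9 call was kept only without Control replicate 2 or K4 replicate 3, and the Stmn2 call was lost without Ketamine replicate 2 or 3. The part of these cell types in the member values was not tested.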

How the data were processed

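Total RNA from 9 mPFC samples was made into stranded mRNA libraries (TruSeq), per the labels' protocols. Rat build rn6 and the tools HISAT2 2.1.0, StringTie 2.1.3b, Trimmomatic and bcl2fastq 2.20.0 were named, per the submitters' processing notes. Raw counts were deposited as 1 table, and FPKM and TPM were deposited for each library. For the counts, neither tool nor strand setting is given in the sources used here, so overlapping antisense reads cannot be told apart. FPKM values were used only, with the counts, to derive gene lengths for the gene length offset.

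Counts were tested with edgeR 4.0.16 in R 4.3.3 (quasi-likelihood, robust, TMM; minimum count 10, minimum total 15; 18047 genes; all 9 libraries in 1 fit of 3 groups; two-sided). The fit's common biological coefficient of variation was 10.17%. Adjusted p-values are Benjamini-Hochberg over all genes tested. Spreadsheet date symbols (27) were restored from gene IDs. The fit was checked on simulated data. No library was a duplicate of another.

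The members and lists were chosen with earlier results of these data known. Full values are given for called members and for the member of each role with the smallest p in each comparison with Control. For up to 4 called genes of each pathway and lineage list (or, with no call, the gene of smallest p) the log2 change and adjusted p are given. Levels are given for only some of these list genes. Mbp, Opalin, Myrf, Tf, Aspa and the others beside them were named after their values were seen, and so was the choice of printed promoters. Of 144 list entries 143 matched (not Lhfpl3), and Tmem125 was not tested. The gene of smallest p of 1 list in K4 against Control is not reported here.

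Alternatives were other size factors, upper quartile scaling, DESeq2 1.42.0, no filter, 2 groups at a time, a replicate block and leaving out each library. Others were a gene length offset, with lengths from the deposited counts and FPKM, and limma 3.58.1 on log2(TPM + 1) and log2(TPM + 0.1). The limma fits used genes with at least 0.5 TPM or no filter.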

Additional observations from a re-analysis of the deposited data

How the results depend on the processing

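With 3 libraries a group, most calls were lost in at least 1 fit that left out a library. Such a fit also has fewer libraries to estimate the spread from. Leaving out each library in turn gave 0 to 4 members called in K4 against Control (median 0.06 to 0.24), 1 to 7 in Ketamine against Control (median -0.31 to -0.037) and 0 or 1 in K4 against Ketamine (median 0.26 to 0.40). In the same fits the number of all genes called was 174 to 1548, 1177 to 3191 and 0 to 27. DESeq2 called 3 members in K4 against Control (Cldn11, Enpp2, Qdpr), 8 in Ketamine against Control (the 7 and Tf) and 1, Myrf, in K4 against Ketamine. There an edgeR fit of the 2 groups alone also called 1, beside 27 of 17730 genes. DESeq2 gave no adjusted p for 4 members in K4 against Control. Of all genes it called 1883 of 12747 in K4 against Control, 3499 of 15733 in Ketamine against Control and 66 of 14739 in K4 against Ketamine. On TPM, limma called 4 members in K4 against Control at either pseudocount (medians 0.32 and 0.33) and 0 without the filter (0.32), and in Ketamine against Control 1, 1 and 0. Of all genes it called 726, 666 and 3 in K4 against Control and 1593, 1556 and 566 in Ketamine against Control. These were out of 16698 genes with the filter and 25704 without it. TPM moved the median of all genes by 0.15 and 0.11, and the members' median minus it was 0.17 and -0.18. The length offset called 1 member, Nfasc, in K4 against Control and 3 in Ketamine against Control, beside 431 and 1400 of 18047 genes. Upper quartile scaling changed the share of all K4 calls that were higher to 48.3%, against 37.4%, and TPM changed it to 92.4%. In Ketamine against Control the share was 41.6%, and it was 50.6% with upper quartile scaling and 76.7% on TPM.

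A scaling of the libraries by the 12 structural genes was added after the data were seen. It left 0 members called in each comparison, with medians of -0.058, -0.030 and -0.060 in K4 against Control, Ketamine against Control and K4 against Ketamine. The median of all genes was then -0.22, 0.18 and -0.40. By construction it removes what the structural genes share.

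Replicate numbers are shared by the groups in the labels. Same-numbered libraries had correlations of their deviations of 0.11, 0.09 and 0.00 in K4 with Control, 0.08, 0.03 and 0.03 in Ketamine with Control and 0.08, 0.07 and 0.05 in K4 with Ketamine. Not every library correlated best with its own number, so the numbers were not used as pairs. With a replicate block 1, 7 and 0 members were called in K4 against Control, Ketamine against Control and K4 against Ketamine. Of all 18047 genes 1168, 3191 and 1 were called. The members' medians were 0.14, -0.20 and 0.34.

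None of the 8 calls of the edgeR fit of all 9 libraries changed sign under any alternative run. Members called in K4 against Control only under an alternative could: Cnp, Pllp and Nfasc were at -0.05, -0.0083 and -0.05 (log2) under the structural scaling.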
